A study of Mus musculus with 12 samples.

Results

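The heterotrimeric G protein subunits and the regulators of G protein signaling (Rgs) were examined by RNA-seq in mouse dorsal root ganglia (DRG), the clusters of sensory nerve cell bodies beside the spinal cord. They comprise 40 of the 24490 genes in the table, taken by gene symbol with no filter on level, and consist of 13 Gα, 4 Gβ and 10 Gγ genes and 13 Rgs genes. Each symbol had a single value per sample. All mice were adult C57Bl/6 males with no transgene and no injury. The 4 Intact samples were whole ganglia of 1 mouse each, snap frozen without dissociation. The 4 Dissociated samples each held the unsorted cells of 2 mice after treatment with dispase, collagenase and DNAse. The 4 MACS samples each held the same kind of suspension, pooled from 8 mice, after magnetic cell sorting, in which antibodies to non-neuronal cells retained those cells on a column and the flow-through was kept. The groups therefore differ in the number of mice behind a sample as well as in the preparation, and 8 mice pooled into 1 sample average over animals. Values are FPKM, fragments per length of transcript and per number of fragments mapped, so levels of different genes can be set side by side. Depth, derived from the steps between low values, was 16200000 to 19200000 fragments in Intact, 15500000 to 18100000 in Dissociated and 13400000 to 16900000 in MACS samples.

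A heterotrimeric G protein couples a 7-transmembrane receptor to enzymes and channels in the cell. The Gα subunit exchanges GDP for GTP when the receptor is activated, parts from the Gβγ pair, and both then act on targets until Gα hydrolyses its GTP. Gs stimulates adenylyl cyclase, Gi and Go inhibit it and release Gβγ onto ion channels, and Gq and its relatives activate phospholipase C beta. Rgs proteins speed up GTP hydrolysis by Gα and so shorten the signal. In sensory neurons these proteins lie downstream of receptors for opioids, prostaglandins, bradykinin and itch mediators.

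The end of Gα is the part that the receptor contacts, and in most Gi and Go genes the codon 4 from the end encodes the cysteine that pertussis toxin modifies. The last 33 coding bases of 7 Gα genes are shown as examples of the Gi and Go, Gq and Gs classes compared below; they were read from GENCODE M21 transcripts of GRCm38, and capitals mark the codon 4 from the end.
Gnao1: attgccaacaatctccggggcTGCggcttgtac
Gnai1: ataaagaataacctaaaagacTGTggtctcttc
Gnai2: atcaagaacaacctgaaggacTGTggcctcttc
Gnaz: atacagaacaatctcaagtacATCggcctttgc
Gnaq: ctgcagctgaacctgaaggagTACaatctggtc
Gna14: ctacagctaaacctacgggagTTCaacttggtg
Gnas: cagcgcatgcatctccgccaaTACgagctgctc
Of the 12 Gα genes read, a cysteine codon stood at that place in Gnao1, Gnai1, Gnai2 and Gnai3. Gnaz, which is grouped with them, had ATC, as did Gna12 and Gna15, and Gnas, Gnaq and Gna11 had TAC, so apart from the cysteine codons the codon did not sort the genes by class. Gnai1 and Gnai2 shared 28 of 33 bases, whereas Gnai1 shared 17 of 33 with Gnao1 and 18 of 33 with Gnaq. The genes with this cysteine codon did not move together, as given below for Gnao1 and Gnai1.

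The cell types in the 3 preparations were checked with marker lists. Summed over 8 satellite glia markers, the level was 2299 to 2888 FPKM in Dissociated and 90.1 to 203 FPKM in MACS samples, and 7 of 8 were called lower. Schwann cell markers fell from 1920.0 to 3161 FPKM to 520 to 1202 FPKM (6 of 7 called), fibroblast markers from 168 to 337 FPKM to 7.62 to 32.4 FPKM (5 of 6) and markers of large-diameter neurons from 869 to 1072 FPKM to 87.0 to 162 FPKM (8 of 9). Among them Kcnj10, Slc1a3, Ednrb, Lum and Runx3 averaged under 0.5 FPKM in MACS samples. Pan-neuronal markers overlapped, with sums of 4194 to 4523 FPKM in Dissociated and 3769 to 4822 FPKM in MACS samples. Of the 8, Avil was called higher (log2-fold change 0.61) and Snap25 lower (log2-fold change -0.94), and Tubb3 was lower on the adjusted p alone (log2-fold change -0.38). In all, 3 of the 8 were higher and 2 lower at an adjusted p under 0.05. The MACS samples lay wholly above the Dissociated samples in 3 and wholly below in 2. Of 11 nociceptor markers 9 were called higher and 1 lower, with sums of 2710 to 2832 FPKM in Dissociated and 3099 to 4300.5 FPKM in MACS samples. Haemoglobin genes made up 0.0496% to 0.155% of the summed FPKM in Dissociated samples and 0.613%, 0.693%, 4.27% and 6.23% in MACS samples 1 to 4. In bulk RNA, fewer cells of a type and less RNA per cell cannot be told apart.

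A gene was called when the limma adjusted p was under 0.05, the log2 ratio of group mean FPKM lay beyond 0.5 in either direction and the higher group averaged above 5 FPKM, which are the limits of the study. A log2-fold change given with a standard error is the mean of log2(FPKM + 0.1) over the 4 samples of one group minus that over the 4 of the other. Values of single samples are given in the order of samples 1 to 4. Genes averaging under 1 FPKM over the 8 samples fitted were not tested. This left 37 of the 40 genes in every comparison, because Gna15, Gng13 and Rgs1 lay under the limit. Of the 40 genes, 25 exceeded 5 FPKM in all 12 samples and 9 exceeded it in none.

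The comparison of MACS with Dissociated samples asks which transcripts go with the sorted neurons. Of the 37 genes tested, 18 were called (48.6%), beside 20.7% of the 12038 genes tested. The 13 called higher were Gnal, Gnao1, Gnaq, Gna14, Gnb2, Gnb4, Gng2, Gng5, Rgs3, Rgs4, Rgs8, Rgs10 and Rgs17 (35.1%, beside 8.15% of all genes). The 5 called lower were Gnai1, Gng8, Gng11, Gng12 and Rgs6 (13.5%, beside 12.5%). On the adjusted p alone 16 genes were higher and 9 lower, beside 18.8% and 27.7% of all genes. The MACS and Dissociated samples did not overlap in 15 genes that were higher and 8 that were lower in MACS samples, beside 18.4% and 27.8% of all genes. The median log2-fold change was 0.21 over the 37 genes and -0.04 over all genes tested. By role, 1 of 2 Gs, 1 of 5 Gi/o and 2 of 3 tested Gq/11 genes were called higher, as were 2 of 4 Gβ, 2 of 9 Gγ and 5 of 12 tested Rgs genes. Calls in the other direction fell on 1 Gi/o gene, 3 Gγ genes and 1 Rgs gene. Leaving out MACS samples 3 and 4, which held the most haemoglobin RNA, gave 13 calls higher and 5 lower, and each of the 18 genes was again called. The plot of changes by gene shows both comparisons.

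**Figure D1:**
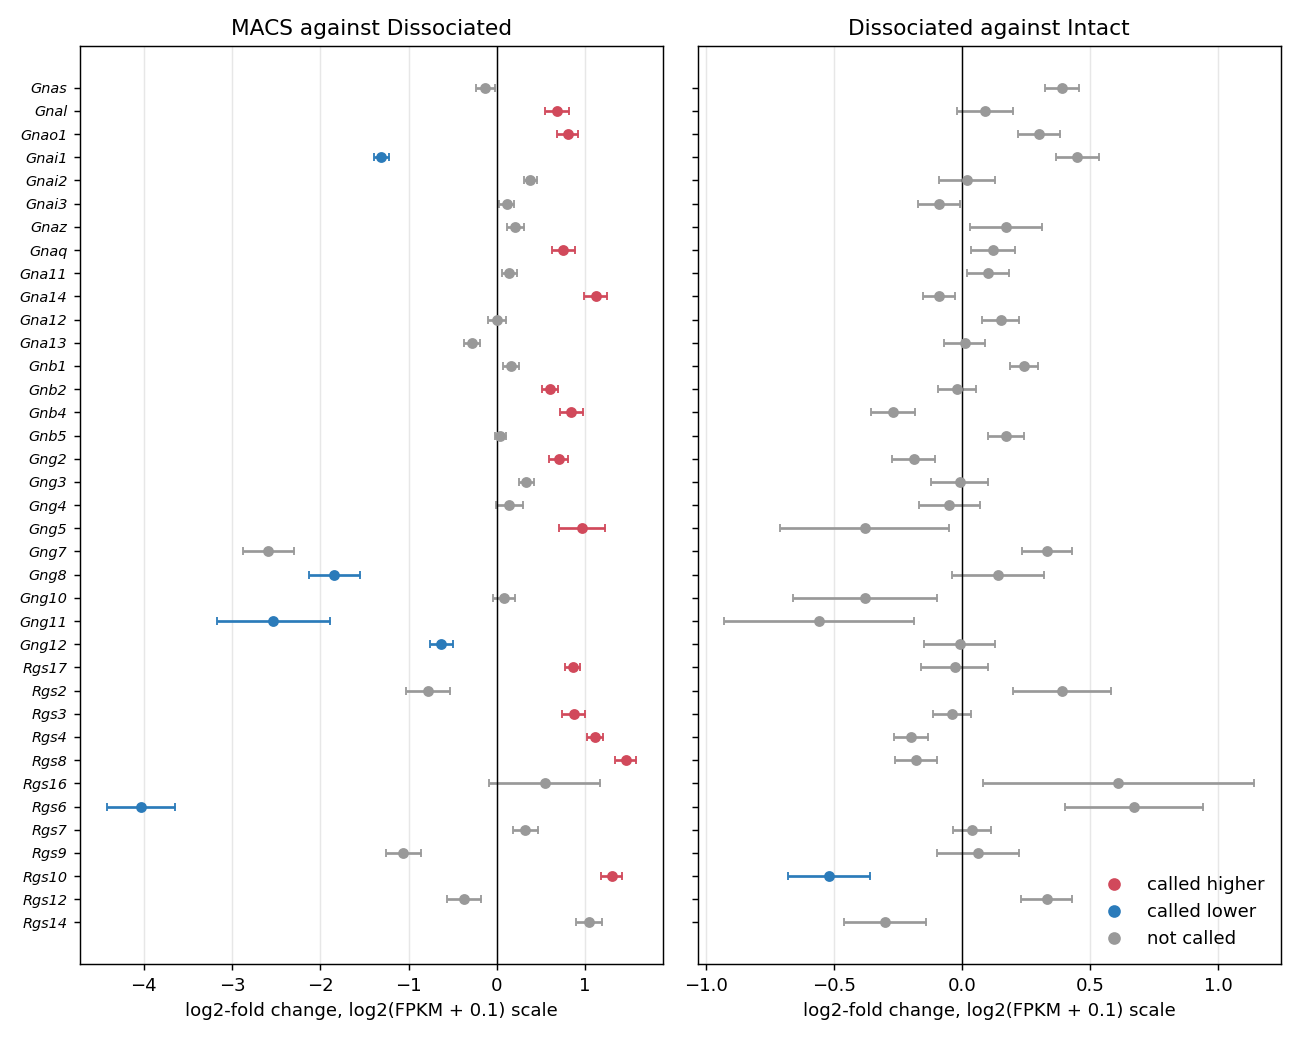
Log2-fold change of each tested gene between MACS and Dissociated samples (left) and between Dissociated and Intact samples (right), on the log2(FPKM + 0.1) scale; the horizontal scales differ between the panels. Points are differences of group means of 4 samples, bars are standard errors and colours mark calls. The left panel holds 18 calls, from -4.03 for Rgs6 to 1.46 for Rgs8, and the right panel 1, for Rgs10.

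Among the Gα genes, Gnas, which encodes the stimulatory subunit Gαs, had the highest level of the 40 genes in every sample but MACS 2 and MACS 4, where Rgs4 was higher. It measured 1014, 920.1, 883 and 738 FPKM in MACS samples 1 to 4, 941, 967, 1029 and 927 FPKM in Dissociated and 782, 711, 729 and 735 FPKM in Intact samples. The MACS and Dissociated values overlapped, with MACS 4 lowest. The difference between these groups did not pass the test (log2-fold change -0.13, standard error 0.11, limma adjusted p = 0.36). The gene value sums 4 start sites at chromosome 2, 174284320 to 174346742 of mm10, so it does not separate Gαs from the other transcripts of the locus. Gnal, which encodes Gαolf, the stimulatory subunit of olfactory neurons, was the other Gs gene. Its level was 162, 149.6, 155 and 101 FPKM in MACS, 86.2, 88.3, 91.9 and 83.0 FPKM in Dissociated and 65.9, 95.2, 85.1 and 85.6 FPKM in Intact samples. All 4 MACS samples lay above all others, MACS 4 by the least, and Gnal was called higher in MACS than in Dissociated samples (log2-fold change 0.68, standard error 0.14, limma adjusted p = 0.0029).

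Gnao1 encodes Gαo, an abundant Gα of nervous tissue, and lies at chromosome 8, 93810838 to 93969388. It stood at 498, 472, 459.7 and 333 FPKM in MACS samples, 261, 261, 239.9 and 239.9 FPKM in Dissociated samples and 181, 224, 194 and 215 FPKM in Intact samples. The 3 groups did not overlap, and the MACS mean was 1.76 times the Dissociated mean (log2-fold change 0.80, standard error 0.12, limma adjusted p = 0.00055). By mean level Gnao1 ranked 131st of 24490 genes in Dissociated and 60th in MACS samples.

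Gnai1 encodes the inhibitory subunit Gαi1 and lies at chromosome 5, 18265135 to 18360413. Its level was 19.9, 17.6, 21.5 and 19.4 FPKM in MACS, 46.5, 49.2, 44.4 and 54.0 FPKM in Dissociated and 38.4, 34.9, 36.6 and 32.1 FPKM in Intact samples. Every MACS sample lay below every sample of the other groups. Gnai1 was called lower in MACS than in Dissociated samples (log2-fold change -1.31, standard error 0.085, limma adjusted p = 3.1e-06) and was the one Gα gene called in that direction. The ratio of Gnao1 to Gnai1 FPKM was 17.2 to 26.8 in MACS samples, 4.44 to 5.61 in Dissociated and 4.73 to 6.69 in Intact samples.

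Gnai2, for Gαi2, is at chromosome 9, 107614138 to 107635342. Its values were 128, 136, 116 and 116 FPKM in MACS, 95.7, 103, 92.5 and 90.0 FPKM in Dissociated and 114, 79.9, 88.5 and 96.6 FPKM in Intact samples. The MACS samples lay above all other samples, and the difference from Dissociated samples passed the test on p but not the fold limit (log2-fold change 0.38, standard error 0.076, limma adjusted p = 0.0026). Gnai3, for Gαi3, ranged from 21.8 to 29.8 FPKM over the 12 samples, and Gnaz, whose product Gαz is insensitive to pertussis toxin, from 13.5 to 26.8 FPKM. Neither passed the test between MACS and Dissociated samples (log2-fold changes 0.11 and 0.21, limma adjusted p = 0.33 and 0.12).

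The Gq class has 3 tested genes. Gnaq encodes Gαq, which activates phospholipase C beta, and lies at chromosome 19, 16132831 to 16387453. It measured 166, 155, 151 and 105 FPKM in MACS, 85.6, 86.2, 80.1 and 85.3 FPKM in Dissociated and 66.4, 84.9, 80.6 and 80.2 FPKM in Intact samples. All MACS samples lay above the rest, and Gnaq was called higher (log2-fold change 0.75, standard error 0.13, limma adjusted p = 0.0012). Gna14, a close relative, lies 48213 bases from Gnaq, at chromosome 19, 16435667 to 16610818. Its level was 71.1, 63.3, 64.2 and 44.1 FPKM in MACS, 26.7, 27.6, 28.0 and 27.5 FPKM in Dissociated and 31.4, 29.3, 27.8 and 28.4 FPKM in Intact samples. The lowest MACS sample, MACS 4, lay above the highest of the other 8, and the MACS mean was 2.21 times the Dissociated mean (log2-fold change 1.12, standard error 0.13, limma adjusted p = 9.9e-05).

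Gna11 encodes Gα11, which shares the targets of Gαq. Its level was 27.8, 28.4, 24.2 and 22.0 FPKM in MACS, 22.8, 24.2, 22.8 and 22.6 FPKM in Dissociated and 23.6, 19.0, 20.7 and 23.3 FPKM in Intact samples. The MACS and Dissociated samples overlapped, and the difference did not pass the test (log2-fold change 0.14, standard error 0.088, limma adjusted p = 0.22). The last 33 coding bases of Gna11 and Gnaq were alike in 31 of 33 positions. Gna15, a Gq relative of blood cells, stayed between 0 and 0.305 FPKM in all 12 samples. The G12 class gave no call. Gna12 ranged from 23.8 to 32.5 FPKM (log2-fold change 0.00, standard error 0.1, limma adjusted p = 0.97). Gna13 ranged from 12.9 to 18.9 FPKM, with MACS samples at 12.9 to 16.5 and Dissociated samples at 16.8 to 18.5 FPKM, and passed the test on p alone (log2-fold change -0.28, standard error 0.088, limma adjusted p = 0.027). The plot of Gα levels gives every sample.

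**Figure D2:**
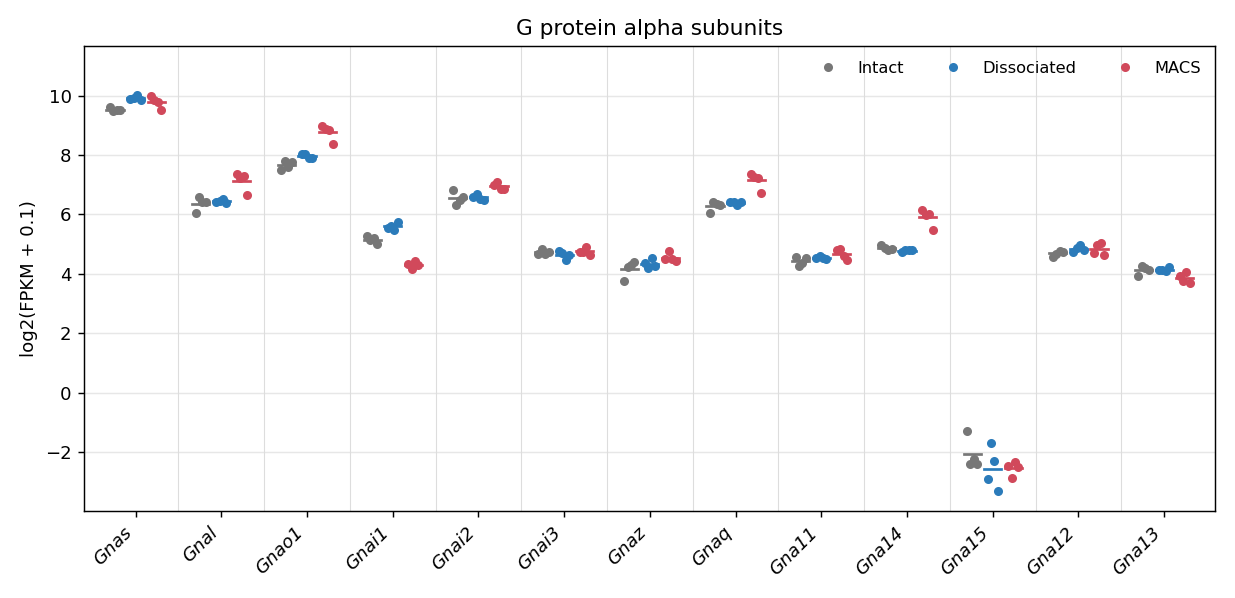
Levels of the 13 Gα genes in each sample as log2(FPKM + 0.1), by gene, with points for the 4 Intact, 4 Dissociated and 4 MACS samples and a line for each group's mean. Gnas is highest throughout, the MACS points of Gnal, Gnao1, Gnaq and Gna14 lie above all others of the gene, and those of Gnai1 lie below.

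These levels were also set against the summed FPKM of the 13 Gα genes, which was 1353 to 1388 FPKM in Intact, 1619.6 to 1721 FPKM in Dissociated and 1562 to 2177 FPKM in MACS samples. Gnas made up 53.9% ± 2.02 (SD, n = 4) of the sum in Intact, 57.7% ± 1.39 in Dissociated and 45.9% ± 1.20 in MACS samples. The share of Gnao1 was 14.8% ± 1.41, 15.0% ± 0.792 and 22.6% ± 0.893 in the same order, and that of Gnai1 2.59% ± 0.205, 2.91% ± 0.316 and 1.03% ± 0.172. For both the MACS shares lay outside the range of the other groups. By class, Gs made up 62.9% ± 1.47 in Dissociated and 53.2% ± 0.800 in MACS samples, Gi/o 26.3% ± 1.22 and 32.8% ± 0.580, Gq/11 8.07% ± 0.320 and 11.8% ± 0.596, and G12/13 2.75% ± 0.0803 and 2.24% ± 0.275. A share falls when another member rises, so these are descriptions and were not tested.

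**Figure D3:**
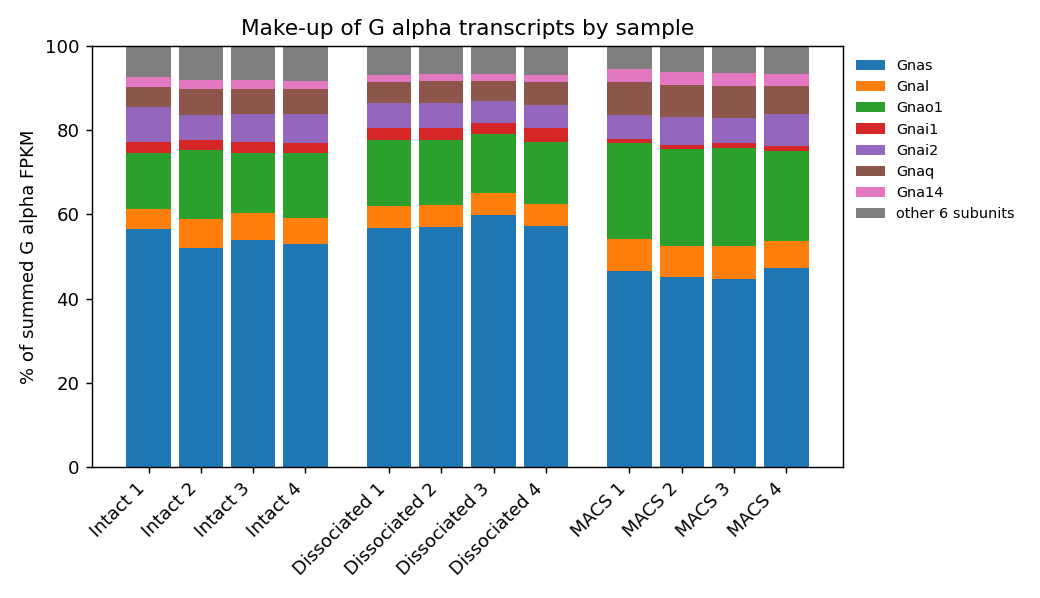
Percent of the summed FPKM of 13 Gα genes taken by each, 1 bar per sample, with the other 6 genes grouped. In MACS samples Gnas takes 44.7% to 47.2% and Gnao1 21.3% to 23.3%, against 56.8% to 59.8% and 13.9% to 15.8% in Dissociated samples.

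The Gβ subunits form a propeller-shaped partner of Gα and are present as Gnb1, Gnb2, Gnb4 and Gnb5 here. Gnb1, the most abundant, at chromosome 4, 155491361 to 155559269, measured 350.4, 363, 349 and 282 FPKM in MACS, 295, 299, 301 and 299.7 FPKM in Dissociated and 247, 257, 258 and 252 FPKM in Intact samples. MACS 4 lay below all Dissociated samples and the other 3 MACS samples above them, and the difference did not pass the test (log2-fold change 0.16, standard error 0.089, limma adjusted p = 0.16). Gnb2, at chromosome 5, 137528129 to 137533229, measured 173, 199, 166 and 153 FPKM in MACS, 117, 112, 119 and 104 FPKM in Dissociated and 126, 108, 112 and 115 FPKM in Intact samples. All MACS samples lay above all others and Gnb2 was called higher (log2-fold change 0.60, standard error 0.089, limma adjusted p = 0.00043). Its exons overlap those of Epo on the same strand, and the 2 cannot be fully separated in a gene value.

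Gnb4, at chromosome 3, 32583528 to 32616535, had 63.2, 57.3, 58.7 and 39.7 FPKM in MACS, 31.2, 29.3, 28.4 and 31.7 FPKM in Dissociated and 42.0, 35.2, 33.7 and 34.6 FPKM in Intact samples. The MACS samples lay above all Dissociated samples, whereas MACS 4 lay within the range of Intact samples. Gnb4 was called higher (log2-fold change 0.84, standard error 0.13, limma adjusted p = 0.00066). Gnb5, the divergent Gβ that binds Rgs proteins of the R7 class, stayed between 30.4 and 41.6 FPKM in all 12 samples (log2-fold change 0.04, standard error 0.061, limma adjusted p = 0.6).

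The Gγ subunits are small lipid-modified partners of Gβ that anchor the pair to the membrane. Gng3, a neuronal Gγ at chromosome 19, 8836929 to 8839246, had the highest level among them, with 204, 222, 198 and 179 FPKM in MACS, 146, 156, 173 and 164 FPKM in Dissociated and 200.5, 147, 149 and 153 FPKM in Intact samples. All MACS samples lay above all Dissociated samples, and the difference passed the test on p but not the fold limit (log2-fold change 0.33, standard error 0.085, limma adjusted p = 0.01). Gng2, at chromosome 14, 19872559 to 19977249, measured 157, 146, 154 and 115 FPKM in MACS, 89.0, 87.4, 79.6 and 93.8 FPKM in Dissociated and 111, 103, 90.1 and 95.3 FPKM in Intact samples. The MACS samples lay above all others and Gng2 was called higher (log2-fold change 0.70, standard error 0.11, limma adjusted p = 0.00047). Gng3 and Gng2 together carried most Gγ FPKM, at 53.0% ± 2.32 and 37.5% ± 2.47 of the sum in MACS samples (SD, n = 4).

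Gng5, which encodes a widely expressed Gγ at chromosome 3, 146499836 to 146505543, had 9.41, 6.24, 3.98 and 7.91 FPKM in MACS, 3.57, 4.15, 3.37 and 2.47 FPKM in Dissociated and 8.89, 4.08, 2.62 and 3.86 FPKM in Intact samples. MACS 3 lay within the Dissociated range and Intact 1 stood with the higher MACS samples. It was called higher in MACS than in Dissociated samples (log2-fold change 0.96, standard error 0.26, limma adjusted p = 0.012) although the groups overlapped.

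Several Gγ genes of low level were lower in MACS samples. Gng11, known from endothelial and other non-neuronal cells, lies at chromosome 6, 4003987 to 4008446. It measured 1.58, 0.194, 1.26 and 3.56 FPKM in MACS, 10.5, 7.83, 5.49 and 5.81 FPKM in Dissociated and 24.1, 7.04, 8.39 and 8.88 FPKM in Intact samples. The MACS samples spread widely but all lay below every other sample (log2-fold change -2.53, standard error 0.64, limma adjusted p = 0.0088). Gng8, described in olfactory and vomeronasal neurons, at chromosome 7, 16891786 to 16895435, measured 4.09, 1.46, 1.83 and 1.48 FPKM in MACS, 8.33, 7.51, 7.98 and 6.26 FPKM in Dissociated and 4.69, 7.19, 8.54 and 7.28 FPKM in Intact samples. MACS 1 stood apart from the other MACS samples and was still below the lowest of the other groups (log2-fold change -1.84, standard error 0.29, limma adjusted p = 0.00062). Gng12, a broadly expressed Gγ at chromosome 6, 66896397 to 67021361, measured 5.83, 4.31, 5.26 and 4.92 FPKM in MACS, 8.67, 8.07, 6.44 and 8.58 FPKM in Dissociated and 9.93, 8.55, 6.97 and 6.73 FPKM in Intact samples. MACS samples lay below all others (log2-fold change -0.63, standard error 0.13, limma adjusted p = 0.0027), and the call was lost under quantile normalization (log2-fold change -0.45). Gng7, a Gγ of striatal neurons, was at 0.382 to 1.16 FPKM in MACS and 3.87 to 5.00 FPKM in Dissociated samples. It passed the test on p (log2-fold change -2.59, standard error 0.29, limma adjusted p = 7.5e-05), but it was not called because the Dissociated mean, 4.53 ± 0.505 FPKM (SD, n = 4), lay under the limit of 5.

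The sums over satellite glia, Schwann cell, fibroblast and large-diameter neuron markers given above were lower in the same MACS samples as these Gγ genes. Endothelial markers gave 11.4 to 68.1 FPKM in MACS and 38.2 to 50.5 FPKM in Dissociated samples, with none of 6 called in either direction by limma and none at an unadjusted p under 0.05. The part of any cell type in the levels of Gng7, Gng8, Gng11 and Gng12 was not tested.

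Gng10, at chromosome 4, 59035156 to 59041899, had 17.5, 14.8, 14.8 and 14.9 FPKM in MACS, 17.1, 16.2, 11.6 and 14.3 FPKM in Dissociated and 36.9, 14.9, 14.4 and 16.6 FPKM in Intact samples. Intact 1 stood far above all 11 other samples, which overlapped (log2-fold change 0.08, standard error 0.12, limma adjusted p = 0.64). Its exons overlap those of Gm20503 on the same strand. Gng4 ranged from 2.88 to 4.79 FPKM (log2-fold change 0.14, standard error 0.15, limma adjusted p = 0.46). Gng13 was listed at 0 in 11 samples and at 1.34 FPKM in Intact 1. The Gβ and Gγ plot gives the levels in each sample.

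**Figure D4:**
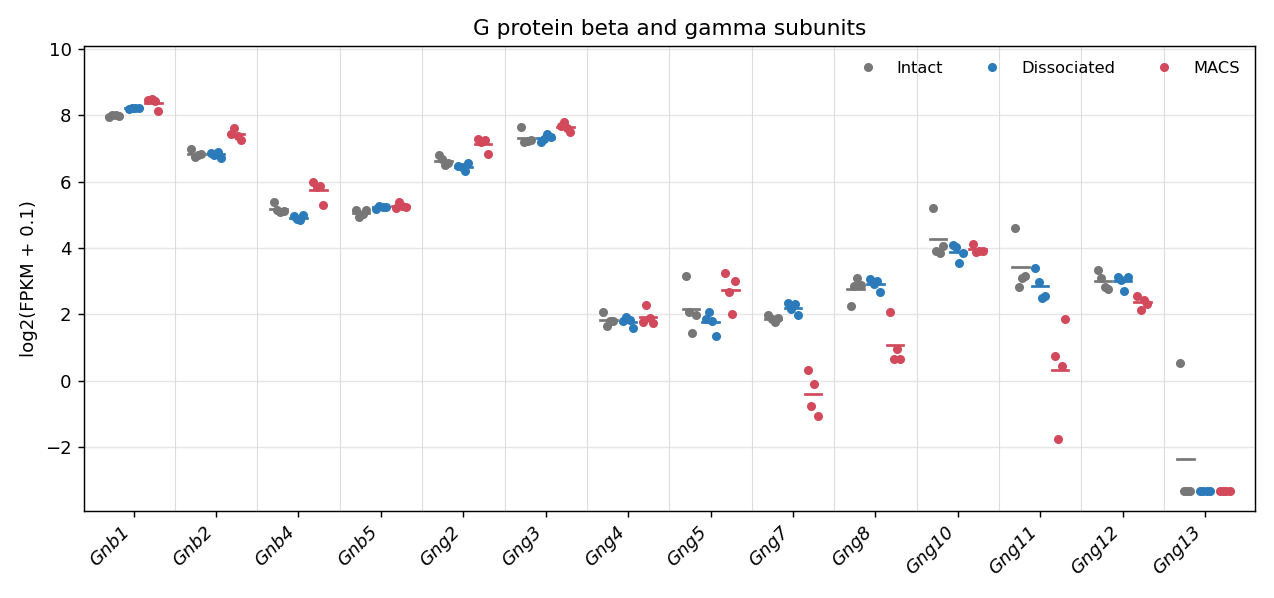
Levels of the 4 Gβ and 10 Gγ genes in each sample as log2(FPKM + 0.1), with points for the 4 Intact, 4 Dissociated and 4 MACS samples and a line for each group's mean. The MACS points of Gng7, Gng8, Gng11 and Gng12 lie below all others of the gene, those of Gnb2 and Gng2 above, and Intact 1 stands apart for Gng10, Gng11 and Gng13.

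The summed level of the 13 Rgs genes was 563 to 579 FPKM in Dissociated, 621 to 767 FPKM in Intact and 1095 to 1399 FPKM in MACS samples, and Rgs4 and Rgs10 carried most of it. Rgs4, a small R4-class regulator that acts on Gαi, Gαo and Gαq, lies at chromosome 1, 169741477 to 169747642. It measured 734, 930.5, 801 and 795 FPKM in MACS, 377, 384, 367 and 379.9 FPKM in Dissociated and 474, 444, 411 and 412 FPKM in Intact samples. The MACS samples lay far above the rest, at 2.16 times the Dissociated mean (log2-fold change 1.11, standard error 0.087, limma adjusted p = 9.3e-06). By mean level Rgs4 ranked 68th of 24490 genes in Dissociated and 22nd in MACS samples.

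Rgs8, an R4 gene best known from Purkinje cells, at chromosome 1, 153653037 to 153697665, had 22.7, 33.2, 28.7 and 31.2 FPKM in MACS, 10.8, 10.6, 10.5 and 9.47 FPKM in Dissociated and 10.4, 12.6, 12.4 and 11.6 FPKM in Intact samples. The MACS samples did not overlap the other groups. The MACS mean was 2.80 times the Dissociated mean, the largest rise among the 37 genes tested (log2-fold change 1.46, standard error 0.12, limma adjusted p = 9.5e-06). Rgs3, also of the R4 class, at chromosome 4, 62559847 to 62703019, had 26.1, 24.8, 21.9 and 16.9 FPKM in MACS, 12.1, 11.7, 13.2 and 11.5 FPKM in Dissociated and 12.2, 12.03, 11.9 and 13.5 FPKM in Intact samples. All MACS samples lay above the other groups (log2-fold change 0.87, standard error 0.13, limma adjusted p = 0.00042). Rgs17, the RZ-class regulator with a preference for Gαz and Gαi, at chromosome 10, 5825664 to 5922400, had 18.2, 16.6, 17.0 and 14.9 FPKM in MACS, 9.56, 9.53, 8.25 and 9.10 FPKM in Dissociated and 7.18, 11.1, 9.18 and 10.1 FPKM in Intact samples. Its MACS samples likewise lay above all others (log2-fold change 0.86, standard error 0.084, limma adjusted p = 3.3e-05).

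The remaining R4 genes were low. Rgs2, which acts on Gαq and is induced by many stimuli, had 2.48, 2.04, 2.70 and 4.25 FPKM in MACS, 3.97, 3.77, 5.43 and 6.63 FPKM in Dissociated and 4.23, 3.39, 3.99 and 3.09 FPKM in Intact samples. It passed the test on p (log2-fold change -0.78, standard error 0.25, limma adjusted p = 0.026) but not the level limit, and the groups overlapped. Without Dissociated 1 or Dissociated 2 it was called (log2-fold change -0.87 and -0.89). Rgs16, another inducible regulator, had 2.43, 0.787, 3.53 and 3.17 FPKM in MACS, 0.527, 0.791, 2.82 and 3.51 FPKM in Dissociated and 1.09, 1.02, 0.752 and 0.866 FPKM in Intact samples and did not pass the test (log2-fold change 0.54, standard error 0.63, limma adjusted p = 0.51). For both, Dissociated samples 3 and 4 were higher than samples 1 and 2. Fos, an early response gene, showed the same order, with 55.6, 57.7, 191 and 314 FPKM in Dissociated samples 1 to 4. The 10 early response markers summed to 70.2 to 83.4 FPKM in Intact, 230.4 to 939 FPKM in Dissociated and 135 to 256 FPKM in MACS samples, and their part in the Rgs2 and Rgs16 values was not tested. Rgs1, a regulator of immune cells, did not exceed 0.302 FPKM.

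The R7 regulators act on Gαi and Gαo together with Gβ5. Rgs6, at chromosome 12, 82617038 to 83158813, had 0.534, 0.231, 0.740 and 0.125 FPKM in MACS, 5.83, 6.05, 9.37 and 8.05 FPKM in Dissociated and 2.45, 5.60, 5.66 and 5.19 FPKM in Intact samples. Every MACS sample lay under 1 FPKM and below every other sample, the largest fall among the 37 genes tested (log2-fold change -4.03, standard error 0.39, limma adjusted p = 3.2e-05). Rgs7, at chromosome 1, 175059076 to 175492545, had 37.8, 37.6, 38.3 and 24.4 FPKM in MACS, 27.1, 26.6, 27.5 and 27.5 FPKM in Dissociated and 24.5, 30.0, 25.9 and 25.8 FPKM in Intact samples. MACS samples 1 to 3 lay above all other samples and MACS 4 below them all, and the difference did not pass the test (log2-fold change 0.32, standard error 0.14, limma adjusted p = 0.08). Rgs9, the R7 gene of photoreceptors and striatum, was at 0.882 to 1.23 FPKM in MACS and 1.79 to 2.86 FPKM in Dissociated samples and passed the test on p (log2-fold change -1.06, standard error 0.2, limma adjusted p = 0.0018) but stayed under 5 FPKM.

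Rgs10, an R12-class regulator known from neurons and microglia, lies at chromosome 7, 128373625 to 128418172. It measured 242, 346, 274 and 249 FPKM in MACS, 124, 113, 112 and 98.3 FPKM in Dissociated and 224, 142, 133 and 154 FPKM in Intact samples. All MACS samples lay above all others, at 2.49 times the Dissociated mean (log2-fold change 1.30, standard error 0.12, limma adjusted p = 2.4e-05). Macrophage markers, 7 genes, summed to 7.61 to 16.0 FPKM in Dissociated and 0.498 to 2.38 FPKM in MACS samples, with all 7 averaging under 0.5 FPKM in MACS samples. The part of any cell type in the Rgs10 level was not tested. Rgs14, a regulator that also binds inactive Gαi, was at 1.47 to 1.78 FPKM in Dissociated and 2.95 to 4.16 FPKM in MACS samples, without overlap, and passed the test on p (log2-fold change 1.04, standard error 0.15, limma adjusted p = 0.00034) but stayed under the level limit. Rgs12 ranged from 2.40 to 4.64 FPKM (log2-fold change -0.37, standard error 0.19, limma adjusted p = 0.13).

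**Figure D5:**
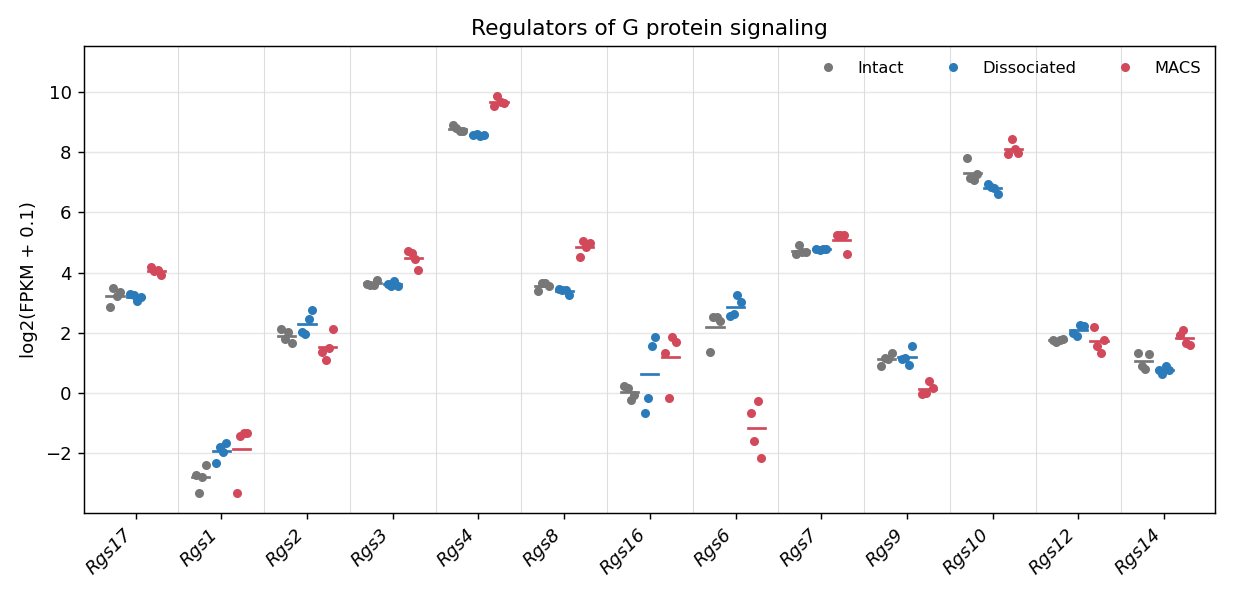
Levels of the 13 Rgs genes in each sample as log2(FPKM + 0.1), ordered by class, with points for the 4 Intact, 4 Dissociated and 4 MACS samples and a line for each group's mean. The MACS points of Rgs3, Rgs4, Rgs8, Rgs10, Rgs14 and Rgs17 lie above all others of the gene, those of Rgs6 and Rgs9 below.

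Dissociated and Intact samples were compared to see what the preparation of the cell suspension goes with. Of the 37 genes tested, 1 was called (2.70%), beside 7.04% of the 12392 genes tested. None was called higher by limma, beside 4.29% of all genes. At an unadjusted p under 0.05, 8 were higher, a count for which no share over all genes was taken. Dissociated samples lay wholly above Intact samples in 8 genes and wholly below in 3, beside 20.8% and 12% of all genes. The one gene called lower, beside 2.76% of all genes, was Rgs10 (log2-fold change -0.52, standard error 0.16, limma adjusted p = 0.044), whose 4 Dissociated values lay below all Intact values. Intact 1, at 224 FPKM, was the highest Intact sample, and without it the log2-fold change was -0.36, below the fold limit. The call was also lost without Intact 2, Intact 4 or any 1 of the 4 Dissociated samples, with log2-fold changes of -0.46 to -0.58 and limma adjusted p from 0.054 to 0.12, and it held only without Intact 3.

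At an adjusted p under 0.05, 6 genes were higher in Dissociated than in Intact samples by less than the fold limit, beside 14.8% of all genes, and Rgs10 alone was lower, beside 7.79%. The 6 were Gnas (log2-fold change 0.39, limma adjusted p = 0.0061), Gnai1 (0.45, adjusted p = 0.0089), Gnao1 (0.30, adjusted p = 0.031), Gnb1 (0.24, adjusted p = 0.018), Gng7 (0.33, adjusted p = 0.043) and Rgs12 (0.33, adjusted p = 0.047). The median log2-fold change was 0.02 over the 37 genes and 0.01 over all genes. Satellite glia, large-diameter neuron, endothelial and early response markers were also higher in Dissociated samples (3 of 8, 5 of 9, 4 of 6 and 8 of 10 called higher). Fibroblast and macrophage markers were lower (5 of 6 and 2 of 7 called lower). Of 8 pan-neuronal markers 0 were called, but 4 were higher and 0 lower at an adjusted p under 0.05. The part of all these markers in the differences was not tested.

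MACS and Intact samples were compared with each other as well, and this comparison shares its samples with the other 2. Of 37 genes 16 were called (43.2%), beside 18.3% of the 12234 genes tested, with 12 higher and 4 lower, beside 7.54% and 10.7%. The genes called lower were Gnai1, Gng8, Gng11 and Gng12. On the adjusted p alone 22 genes passed, beside 34.8% of all genes, with 15 higher and 7 lower, beside 14.1% and 20.6%. For Gnao1 the log2-fold change against Intact samples was 1.10 (limma adjusted p = 0.00036), beside 0.80 against Dissociated samples. For Gnai1 it was -0.86 (adjusted p = 0.00013, limma), beside -1.31. For Rgs10 it was 0.78 (limma adjusted p = 0.0086), beside 1.30. Gng5, called against Dissociated samples, was not called here (log2-fold change 0.57, standard error 0.37, limma adjusted p = 0.26). Rgs6 was lower by a similar amount (log2-fold change -3.36, standard error 0.45, limma adjusted p = 0.00036) but the Intact mean of 4.72 ± 1.53 FPKM (SD, n = 4) lay under 5, and it was called without Intact 1 (log2-fold change -3.64). Gng2 was called (log2-fold change 0.51, standard error 0.12, limma adjusted p = 0.01) and lost its call without Intact 3, Intact 4, MACS 1 or MACS 3, where the log2-fold change was 0.46 to 0.49.

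Several of the genes lie beside a relative. Gnaq and Gna14, 48213 bases apart on chromosome 19, were both called higher in MACS samples. Rgs8 and Rgs16 lie 42687 bases apart on chromosome 1, and of this pair Rgs8 was called and Rgs16 was not. Rgs4 lies 47950 bases from Rgs5, a regulator of pericytes that is not among the 40 genes, and both were called higher (Rgs5 log2-fold change 0.87, standard error 0.22, limma adjusted p = 0.0093). The 5 pericyte and smooth muscle markers had sums of 28.4 to 39.0 FPKM in Dissociated and 3.62 to 5.54 FPKM in MACS samples. Of these markers 3 were called lower and 0 higher. Acta2, Myh11, Tagln and Cspg4 averaged under 0.5 FPKM in MACS samples, whereas Pdgfrb stood at 4.71, 4.04, 3.41 and 4.12 FPKM there. The part of pericytes in the Rgs5 level was not tested. Rgs9 and Gna13, 64612 bases apart on chromosome 11, both passed the test on p as lower. Gna15 and Gna11 lie 4506 bases apart on chromosome 10, the one at most 0.305 FPKM and the other at least 19.0 FPKM in every sample.

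Windows of 250 bases upstream of an annotated start were taken from RefSeq (GRCm38.p6), which held 33 of the 40 genes. For Gng2 and Rgs6 that start lies 556 and 461 bases inside the deposited gene, so their windows fall within the gene. The windows are shown for Rgs4, Rgs8 and Rgs10, the Rgs genes with the largest rise. Capitals mark the motifs searched on both strands, namely the cAMP response element TGACGTCA and its core TGACG, the AP-1 site TGANTCA, the Runx core TGTGGT, the GC box GGGCGG and the TATA box TATAAA. The full element TGACGTCA contains the core.
Rgs4 (chr1:169747643-169747892, minus strand): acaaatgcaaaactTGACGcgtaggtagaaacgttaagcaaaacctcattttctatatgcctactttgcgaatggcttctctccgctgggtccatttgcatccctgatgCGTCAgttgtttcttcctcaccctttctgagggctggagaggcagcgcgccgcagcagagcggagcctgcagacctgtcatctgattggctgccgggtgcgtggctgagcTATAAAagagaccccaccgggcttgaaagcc
Rgs8 (chr1:153652787-153653036, plus strand): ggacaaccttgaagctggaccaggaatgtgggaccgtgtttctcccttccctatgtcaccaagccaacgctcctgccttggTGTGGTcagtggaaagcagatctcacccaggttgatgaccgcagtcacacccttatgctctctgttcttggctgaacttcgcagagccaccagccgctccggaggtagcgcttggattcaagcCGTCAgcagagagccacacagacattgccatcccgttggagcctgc
Rgs10 (chr7:128418173-128418422, minus strand): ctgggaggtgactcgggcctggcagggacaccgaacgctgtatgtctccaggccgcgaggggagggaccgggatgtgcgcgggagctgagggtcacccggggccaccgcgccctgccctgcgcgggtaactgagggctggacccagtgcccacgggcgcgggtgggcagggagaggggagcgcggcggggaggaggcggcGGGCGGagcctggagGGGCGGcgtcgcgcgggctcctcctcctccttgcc
The core TGACG stood in the windows of Rgs4 and Rgs8 and in 5 of the 33 genes, beside 17.8% of all 32851 windows of this length. GC boxes stood in 19 of 33 genes, beside 32.7% of all windows, and in 4 of the 11 matched genes called higher and 3 of the 4 called lower. TATAAA stood in 5 of 33 (12.4% of all windows), TGTGGT in 3 (14.0%), TGANTCA in 2 (6.75%), which were Gng2 and Rgs17, and TGACGTCA in none (1.55%). The median GC content of the windows was 61.6% for the 33 genes and 52.4% for all. These are matches of letters and no binding was measured.

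Other genes of the pathway were taken from lists of 52 genes. Adenylyl cyclases, which make cAMP and are the target of Gs and Gi, had 8 of 10 tested and 4 called lower in MACS than in Dissociated samples, with none called higher and none higher at an unadjusted p under 0.05 by limma. The 3 called genes with the largest falls were Adcy1 (log2-fold change -1.53, standard error 0.11, limma adjusted p = 4.7e-06), Adcy3 (log2-fold change -1.34, standard error 0.12, limma adjusted p = 1.8e-05) and Adcy2 (log2-fold change -1.07, standard error 0.18, limma adjusted p = 0.00085). Adcy8 fell as far (log2-fold change -1.09, standard error 0.17, limma adjusted p = 0.00056) but averaged 2.64 FPKM in Dissociated samples, under the level limit. Adcy5, the cyclase with the highest level, was 17.2 ± 3.92 FPKM in MACS and 13.2 ± 1.21 FPKM in Dissociated samples (SD, n = 4; log2-fold change 0.35, standard error 0.16, limma adjusted p = 0.1). The median log2-fold change over the 8 was -1.05.

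Phospholipase C beta, the target of Gq, was split. Plcb3 measured 208, 199.9, 199.9 and 133 FPKM in MACS and 91.0, 90.2, 99.3 and 87.6 FPKM in Dissociated samples, without overlap, and was called higher (log2-fold change 0.99, standard error 0.14, limma adjusted p = 0.00026). Plcb1 (log2-fold change -1.27, standard error 0.17, limma adjusted p = 0.00021) and Plcb4 (log2-fold change -1.15, standard error 0.14, limma adjusted p = 0.00011) were called lower. Plcb3 was thus 185 ± 35.0 FPKM against 2.92 ± 0.789 and 4.73 ± 0.918 FPKM for Plcb1 and Plcb4 in MACS samples (SD, n = 4).

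Among the receptor kinases and arrestins, which switch receptors off, 4 of 6 tested were called higher and none lower, with none lower at an unadjusted p under 0.05 by limma. The 3 largest were Adrbk1, the kinase GRK2 (log2-fold change 0.80, standard error 0.1, limma adjusted p = 0.00018), Adrbk2 (log2-fold change 0.71, standard error 0.1, limma adjusted p = 0.00033) and Grk5 (log2-fold change 0.53, standard error 0.13, limma adjusted p = 0.009). Of the G protein-gated potassium channels, opened by Gβγ, 2 of 4 were tested and Kcnj3 was called lower (log2-fold change -0.65, standard error 0.15, limma adjusted p = 0.0056). The other, Kcnj6, passed the test on p as higher (log2-fold change 1.27, standard error 0.45, limma adjusted p = 0.043), with overlapping groups and a MACS mean of 1.64 FPKM, under the level limit. Among 8 tested chaperones and modulators 1 was called higher, Gprin1 (log2-fold change 0.69, standard error 0.16, limma adjusted p = 0.0052). Of 14 other subunits and Rgs genes 4 were tested and 2 called higher, Rgs5 and Rgs19 (log2-fold change 0.75, standard error 0.095, limma adjusted p = 0.00016).

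Between Dissociated and Intact samples, 3 genes of these lists were called. Adcy3 (log2-fold change 0.87, standard error 0.18, limma adjusted p = 0.011) and Adcy9 (log2-fold change 0.62, standard error 0.17, limma adjusted p = 0.035) were higher in Dissociated samples, and Rgs11, an R7-class regulator, was lower (log2-fold change -0.97, standard error 0.24, limma adjusted p = 0.021) although its groups overlapped. Against Intact samples, MACS samples had 1.08 for Plcb3 and -1.46 for Adcy1 on the same log2 scale (limma adjusted p = 0.0006 and 5.8e-05).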

How the data were processed

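RNA-seq of 12 DRG samples was analysed, 4 Intact, 4 Dissociated and 4 MACS. The study's methods name poly(A) selection, a directional kit, TopHat2 alignment to mm10 with up to 2 alignments per read and Cufflinks. The labels name Cufflinks 2.1.1. The authors deposited FPKM, 1 value per gene and sample; the annotation release and any use of strand in counting are not given in the sources used here. Exons of 16 of the 40 genes overlap another gene, 14 of them only on the opposite strand. Red blood cell genes, which the study removed from its lists, were kept in the fits.

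Groups were compared with limma 3.58.1 (R 4.3.3), two-sided with an intensity trend, on log2(FPKM + 0.1), for genes averaging at least 1 FPKM over the 8 samples of a comparison, with Benjamini-Hochberg adjustment over all of them. The study names CuffDiff, which needs aligned reads and was replaced. Values after ± are SD over 4 samples, and standard errors of log2-fold changes are those of the limma fit. Deposited starts were shifted to count from 1. Depth was derived from the steps between low FPKM values, taking fragments as 150 bases long, and gave no interval. Pathway and marker lists, and the 40 genes, were chosen with earlier results of these data known. Single-sample values are given for called genes, the 3 highest of each class and genes with a sample that stands apart, and up to 3 called pathway genes per direction and list are named. Of the 52 pathway genes, 1 list of 3 is not reported here. Rgs2 and Rgs16 were given by sample after their values were seen. Sequences are from GENCODE M21 and RefSeq (GRCm38.p6).

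Replicate numbers are in the labels and were not treated as pairs. Data of 4 samples against 4, with 12229 genes, were simulated from the spread of the Dissociated samples, with changes put only into genes of higher level. Of genes changed by 1 on the log2 scale 98% were recovered, and of those changed by 2, 100%. Of 12029 unchanged genes 1 was called. The rates were not measured with the spread of MACS or Intact samples, nor recovery for genes of low level. The summed Gα FPKM had an SD of 265 in MACS and 44.9 in Dissociated samples. Alternatives covered pseudocounts of 1 and 0.01, filters, all 12 samples in a fit, a replicate block, no trend, 3 rescalings, other call limits, Dissociated 1 and 2 averaged, and each sample left out. In some marker genes Dissociated 1 and 2 lay closer to each other than to 3 and 4. Egr1 had 23.0, 23.3, 81.0 and 128 FPKM in Dissociated samples 1 to 4, whereas Gna11 had 22.8, 24.2, 22.8 and 22.6. The labels do not say whether these 2 samples are related, and the fits treat all 4 as independent. Leaving out MACS 3 and 4 was added after the data were seen.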

Additional observations from a re-analysis of the deposited data

Results flagged for a closer look

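In 118 groups of 4 samples, 13 values stood apart from the other 3 by Dixon's criterion, in 12 genes. For normally distributed, independent groups about 1 in 20, or 5.9, would stand apart by chance. Values near 0 and genes read from the same samples do not meet this, so an excess over chance was not measured. Intact 1 held 6 of the 13 values. It was high for Gng10 (36.9 FPKM, others 14.4 to 16.6), Gng11 (24.1 FPKM, others 7.04 to 8.88), Gng3 (200.5 FPKM, others 147 to 153), Gng13 (1.34 FPKM, others 0) and Gna15 (0.305 FPKM, others 0.0899 to 0.114), and low for Rgs6 (2.45 FPKM, others 5.19 to 5.66). FPKM summed over all genes was 345341 in Intact 1 and 283676 to 293648 in Intact 2 to 4. The genes high in Intact 1 have transcripts of 719 (Gng13) to 1962 bases (Gna15). Gng8, with 910 bases, was lower in Intact 1 (4.69 FPKM, others 7.19 to 8.54). The part of transcript length or of the summed FPKM in these values was not tested.

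MACS 4 was low for Gnb1 (282 FPKM, others 349 to 363) and Rgs7 (24.4 FPKM, others 37.6 to 38.3). MACS 1 was high for Gng8 (4.09 FPKM, others 1.46 to 1.83) and Gng10 (17.5 FPKM, others 14.8 to 14.9), and Rgs1 was listed at 0 there (others 0.275 to 0.302 FPKM). Of the Dissociated samples, Dissociated 2 was high for Gna11 (24.2 FPKM, others 22.6 to 22.8) and Dissociated 3 low for Gnaq (80.1 FPKM, others 85.3 to 86.2).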

How the results depend on the processing

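The numbers of called genes changed by less than 1.5 times under most alternatives, and no gene past an adjusted p of 0.05 in a comparison changed sign in it. Of the other genes, 4 changed sign under at least 1 alternative for MACS against Dissociated, 12 for Dissociated against Intact and 5 for MACS against Intact samples, among them Rgs16 against Dissociated samples with MACS 3 and 4 left out (log2-fold change 0.54 to -0.06) and Rgs2 against Intact samples under quantile normalization (-0.39 to 0.05). For MACS against Dissociated samples (13 higher, 5 lower), a filter of 5 FPKM left 2 lower, a fold limit of 1 gave 9 in all with 5 higher, and a level limit of 1 FPKM gave 8 lower. For MACS against Intact samples (12 higher, 4 lower), a fold limit of 1 gave 5 in all with 3 higher and 2 lower, and a level limit of 1 FPKM gave 7 lower. For Dissociated against Intact samples the single call, Rgs10, was absent (0 in all, 0 lower) with no filter, no trend, a fold limit of 1 or Dissociated 1 and 2 averaged, and leaving out 1 sample gave 0 to 1. The replicate block gave 2 in all, 1 of them higher, and moved no other count by over 1.5 times. Same-numbered samples correlated at -0.14 to 0.07 in their deviations from the group means, and 1 to 2 of 8 samples per comparison correlated best with their own number. With MACS 3 and 4 left out, chosen after the data were seen, MACS against Intact gave 13 higher and 3 lower.

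Over all genes, a fold limit of 1 gave 1139 calls (260 higher, 879 lower) for MACS against Dissociated, 165 (42 and 123) for Dissociated against Intact and 1011 (186 and 825) for MACS against Intact. A level limit of 1 FPKM gave 2352 lower, 1349 in all with 665 lower, and 2206 lower in the same order. Dissociated against Intact gave 224 lower without Dissociated 1, 579 with 203 lower without Dissociated 3 and 187 lower without Dissociated 4. Quantile normalization moved the median of all genes from -0.041 to 0.111 for MACS against Dissociated and from -0.038 to 0.131 for MACS against Intact. Under it Gng12 lost its call in both comparisons and Gng2 in the second. Depth limits the lowest genes, Gna15, Gng13 and Rgs1, which were not tested.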

Other observations

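Because Gnas makes up about as much of the Gα sum as all other Gα genes together, shares were also taken without it. Of the remaining 12 genes' FPKM, Gnao1 made up 35.4% ± 0.896 in Dissociated and 41.9% ± 1.01 in MACS samples (SD, n = 4), Gnaq 11.9% ± 0.319 and 13.6% ± 0.673, and Gna14 3.88% ± 0.155 and 5.75% ± 0.325. Gnal, called higher by FPKM, had 12.3% ± 0.618 and 13.4% ± 0.871. Gnai1 had 6.86% ± 0.640 and 1.90% ± 0.343, and Gna13 2.48% ± 0.129 and 1.40% ± 0.174. None of these shares was tested.

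Rgs4 and Rgs10, the 2 Rgs genes of highest level, kept a ratio of 3.05 to 3.86 in Dissociated, 2.11 to 3.13 in Intact and 2.69 to 3.19 in MACS samples, so the ranges of the 3 groups overlapped. Gng2 to Gng3 was 0.460 to 0.608 in Dissociated and 0.639 to 0.781 in MACS samples, without overlap, and 0.553 to 0.702 in Intact samples, which overlapped both.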
